A study of Mus musculus with 31 samples.

Results

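The 10 genes described here encode the machinery that reabsorbs sodium in the last, aldosterone-sensitive stretch of the nephron, and their messenger RNAs were followed in polycystic mouse kidney with and without an inhibitor of the microRNA miR-17. They were taken by symbol as Slc12a3, Scnn1a, Scnn1b, Scnn1g, Nr3c2, Nedd4l, Wnk1, Wnk4, Klhl3 and Pvalb, which are 10 of the 23509 genes listed for each kidney. All 10 passed the filter on low counts that left 15185 genes for testing. Kidneys of 31 mice were sequenced as poly(A) RNA at 30 weeks of age. The PBS group held 12 male Pcy/CD1 mice that carry the recessive pcy allele and received subcutaneous saline. The RGLS4326 group held 14 male Pcy/CD1 mice that received the anti-miR-17 oligonucleotide RGLS4326 subcutaneously at 25 mg per kg from 5 weeks of age for 25 weeks. The sample labels call the PBS dosing weekly and the RGLS4326 dosing monthly, while the protocol text reads as monthly for both. The wild-type group held 5 untreated male CD1 mice of the same age, which received no injections, so that the pcy allele and the injections cannot be told apart in a comparison with wild type. Kidneys of Pcy/CD1 mice fill with cysts slowly, and every value below is an average over cysts, remaining tubules and interstitium.

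In the distal convoluted tubule, NCC, the thiazide-sensitive sodium chloride cotransporter encoded by Slc12a3, carries sodium into the cell, and it is switched on by phosphorylation through the WNK kinases. Further along, principal cells of the connecting tubule and collecting duct take up sodium through ENaC, the amiloride-sensitive channel built from an α subunit (Scnn1a), a β subunit (Scnn1b) and a γ subunit (Scnn1g). Aldosterone acts through the mineralocorticoid receptor (Nr3c2) to raise ENaC at the membrane, partly by restraining the ubiquitin ligase NEDD4-2 (Nedd4l), which removes the channel. KLHL3 is the adaptor that hands WNK kinases to a cullin ligase for degradation, and parvalbumin (Pvalb) is a calcium buffer of the early distal convoluted tubule.

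Counts on genes numbered 14892524 to 27459962 per kidney, with a median of 19961466. Expression is given in CPM (counts-per-million), after TMM scaling of the libraries in edgeR. The library of RGLS4326-treated mouse 9 stood apart from its group. In that mouse 8 of the 10 genes fell inside the range of the 5 wild-type mice, whereas the other 13 treated mice had 0 to 5 such genes and the 12 PBS-treated mice had 0 to 3. Its summed level of 5 genes of the injured tubule was 719.9 CPM, within the wild-type range of 333 to 861 CPM and below the 2488 to 6203 CPM of the other treated mice. Its summed principal cell level (943 CPM) and T lymphocyte level (4.34 CPM) were in the wild-type range as well, and its proximal tubule level (13310 CPM) was between those of wild-type and the other treated mice. Whether it was a treated mouse with little disease or a library of another mouse cannot be told apart here. The labels place it among the treated mice, so it was kept, and results that rest on it are given with and without it. Of the wild-type pairs, mice 3 and 4 differed least. Their chi-square per gene of 2.84 (10690 genes compared) was above the value of about 1 for sampling alone and far below the 17.1 to 24.5 of the other wild-type pairs, which does not establish that they are separate animals. The labels list them as separate mice and they were counted so, and all 10 genes passed in PBS against wild type without either. In order of library number within each group, a second number in the library names restarts. The 3 runs this gives are called index series here and were inferred from the names alone. Each holds 4 or 5 mice of either Pcy/CD1 group and 1 or 2 wild-type mice. Mouse 9 belongs to the second series.

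Because the treatment is directed at miR-17, the 3′UTRs of the 10 genes were searched for matches to its seed, the bases that pair with a target. The mature mouse miR-17-5p, from RefSeq at chr14:115043684-115043706 on the plus strand of GRCm38.p6, is shown with seed bases 2 to 8 in capitals.
miR-17-5p: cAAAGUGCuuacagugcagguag
The letters searched were GCACTTT (a 7mer-m8 match, or an 8mer where A follows) and CACTTTA (a 7mer-A1 match), on the transcribed strand of the longest annotated 3′UTR in GENCODE vM21. Klhl3 held a single 7mer-m8 match at chr13:58003889-58003917, and Wnk1 a single 7mer-A1 match at chr6:119925597-119925625, both on the minus strand of GRCm38. They are printed with 11 bases on each side because these are the WNK pathway genes whose transcripts carry the letters, with the matched bases in capitals.
Klhl3: tctggccgttgGCACTTTgtgaggacggt
Wnk1: acttattaagaCACTTTAactttttcctt
Nedd4l held 1 8mer, 1 7mer-m8 and 1 7mer-A1 match in a 3′UTR of 4942 bases, and the 3′UTRs of the remaining 7 genes held none. Among 21011 genes with an annotated 3′UTR, 11.8% held a 7mer-m8 or 8mer match, 3.50% an 8mer and 18.6% any of the 3 kinds. Such a match is a description of the letters and not evidence of binding.

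Levels of different genes were compared per kilobase of the annotated principal transcript and, as a choice made after seeing the data, per kilobase of all annotated exons merged, because reads were counted over whole genes. The order depends on this length for several genes. In wild-type kidney Slc12a3 was highest by both, at 307 ± 53.1 CPM per kilobase of the principal transcript and 90.9 ± 15.8 of merged exons (SD, n = 5). Wnk4 (70.5 ± 6.80 and 70.0 ± 6.75) and Pvalb (67.9 ± 9.81 and 63.7 ± 9.21) followed by either length, and their spreads overlapped. Scnn1a (38.2 ± 4.13 and 32.3 ± 3.50) stood above Scnn1b (23.1 ± 1.48 and 21.7 ± 1.40), and Scnn1b above Scnn1g (16.2 ± 0.823 by both). Klhl3 (2.80 ± 0.624 and 2.73 ± 0.609) and Nr3c2 (2.60 ± 0.331 and 2.38 ± 0.302) were lowest and overlapped. Wnk1 was above Scnn1a by the principal transcript (51.2 ± 9.25) and below it by merged exons (23.7 ± 4.29). Nedd4l was above Scnn1b by the first (30.6 ± 1.02) and below Scnn1g by the second (6.56 ± 0.220), since its principal transcript of 3792 bases is shorter than the longest 3′UTR of the same gene. The length used for Wnk1 is that of the long form, and gene counts do not separate it from the short kidney-specific form that lacks the kinase domain. In PBS-treated kidney Scnn1b was above Scnn1a by both lengths, at 53.0 ± 7.71 against 49.4 ± 5.69 CPM per kilobase of the principal transcript (SD, n = 12, higher in 9 of 12 mice) and 49.9 ± 7.26 against 41.8 ± 4.82 of merged exons (higher in 12 of 12). Pvalb, near Wnk4 in wild type, was above only Nr3c2 and Klhl3, at 4.81 ± 2.14 and 4.51 ± 2.01 CPM per kilobase. In RGLS4326-treated kidney Scnn1a averaged more than Scnn1b by both lengths, at 47.1 ± 5.16 against 40.0 ± 7.43 and 39.9 ± 4.37 against 37.6 ± 6.99 CPM per kilobase (SD, n = 14).

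In polycystic kidney the ENaC subunits and Nedd4l were higher than in wild type, and NCC, parvalbumin, the mineralocorticoid receptor, both WNK kinases and Klhl3 were lower. All 10 genes passed an adjusted p under 0.05 in PBS against wild type (quasi-likelihood test of edgeR, Benjamini-Hochberg adjustment over all genes tested), 4 higher and 6 lower. That comparison was wide, and 74.3% of all genes tested passed, 37.7% higher and 36.6% lower, so passing alone sets none of the 10 apart. The median log2 fold change was −0.34 over the 10 genes and 0.01 over all genes. With the study's further threshold of an absolute log2 fold change over 0.5, 6 of the 10 genes passed, against 42.4% of all genes. Between RGLS4326 and PBS, 4 of the 10 genes passed, 2 higher (Wnk1, Pvalb) and 2 lower (Scnn1b, Scnn1g). Across all genes 15.8% passed, 9.15% higher and 6.66% lower. The study's threshold on size left 1 gene, Pvalb, against 2.15% of all genes. Without mouse 9, 2 of the 10 genes passed (Scnn1b and Scnn1g, both lower), 5 had an unadjusted p under 0.05, and 0 passed with the threshold on size (edgeR). In the same fit 8.14% of all genes passed, 4.66% higher and 3.48% lower, and 0.956% with the threshold on size. The share of all genes at an unadjusted p under 0.05 was not counted without mouse 9. With every mouse it was 36.8%, against 6 of the 10 genes (edgeR). RGLS4326-treated kidneys still differed from wild type in all 10 genes, in the directions of the PBS-treated kidneys, with 4 higher and 6 lower, where 64.9% of all genes passed, 32.5% higher and 32.4% lower. Here 5 of the 10 genes passed with the threshold on size, against 31.5% of all genes. Without mouse 9 these counts stayed at 10 and 5, against 67.5% of all genes, 34% higher and 33.5% lower, and 33.8% with the threshold on size. These comparisons share mice, so that their values stand side by side and are not independent of each other.

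**Figure D1:**
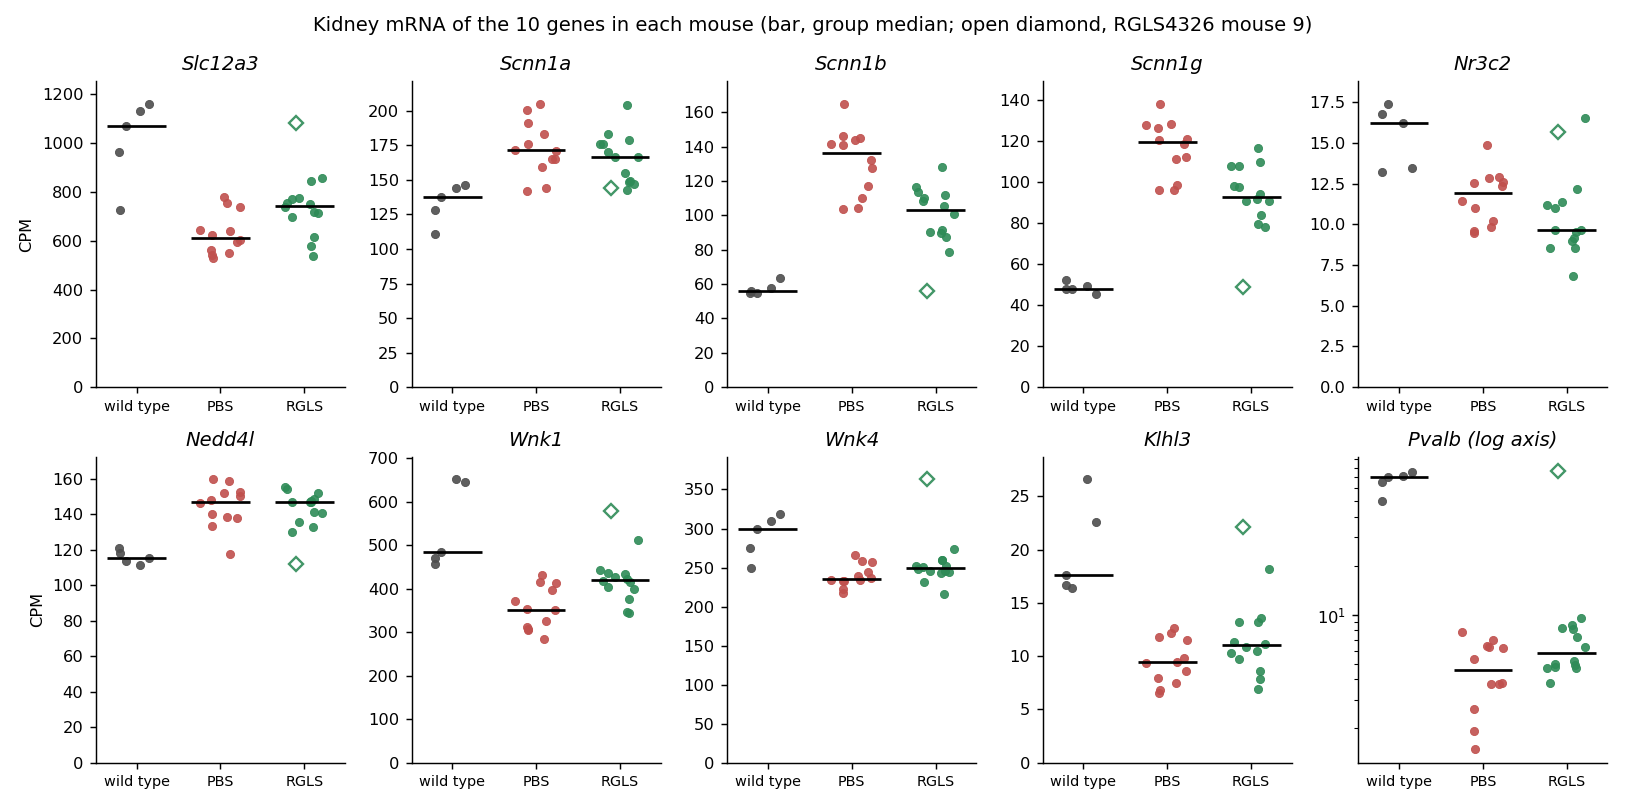
Kidney mRNA of the 10 genes in CPM for each mouse of the 3 groups, with 5 wild-type, 12 PBS and 14 RGLS4326 (RGLS) mice. Points are mice, bars are group medians, the open diamond is RGLS4326-treated mouse 9, and the axis starts at 0 except for Pvalb, which has a log axis. Scnn1b and Scnn1g of every PBS-treated mouse lie above the wild-type mice and Pvalb of every PBS-treated mouse lies below them.

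**Figure D2:**
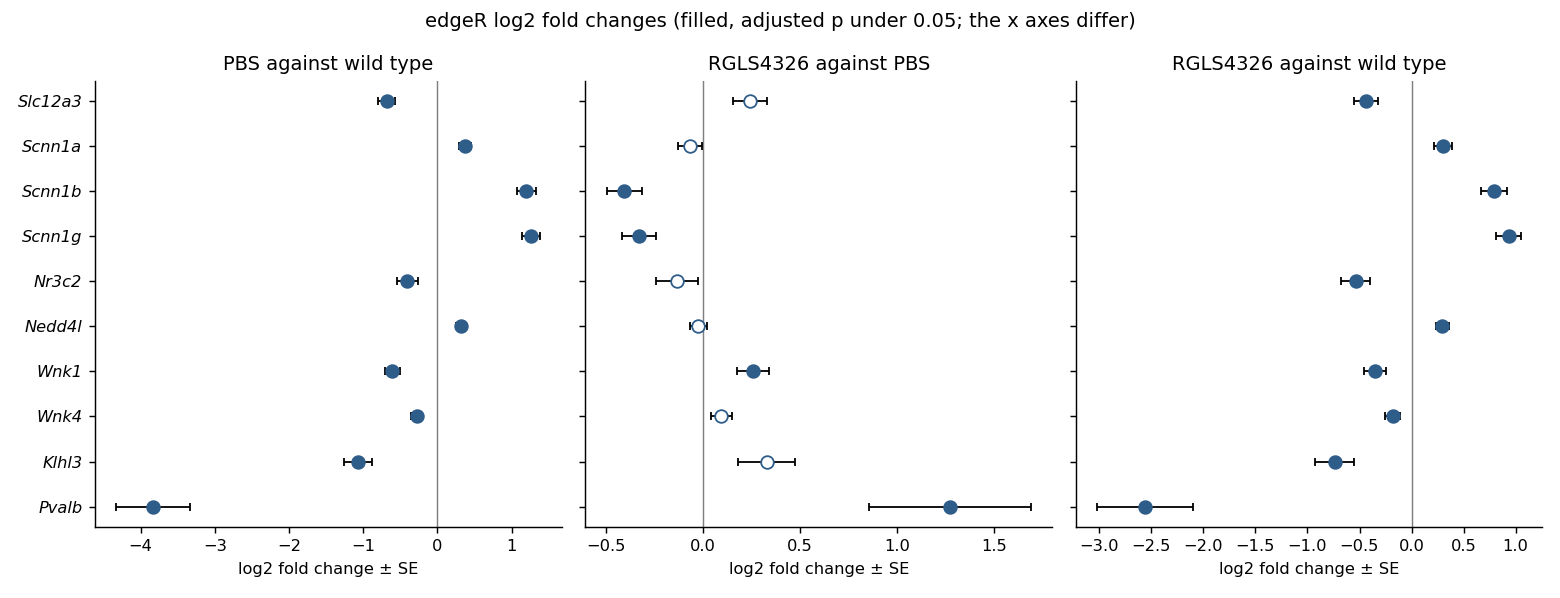
Log2 fold changes of the 10 genes in the 3 comparisons on edgeR's scale, with error bars of 1 standard error and filled points for an adjusted p under 0.05. All 10 points are filled in both comparisons with wild type and 4 are filled for RGLS4326 against PBS, and each panel has its own x axis.

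Slc12a3 (ENSMUSG00000031766.4, chr8:94329201-94366214, plus strand of GRCm38) encodes NCC. Its level was 965, 1069, 1162, 1132 and 728 CPM in the 5 wild-type mice. It ran from 528 to 780 CPM with a median of 613 in PBS-treated mice and from 538 to 1081 CPM with a median of 743 in RGLS4326-treated mice. Wild-type mouse 5 was low for its group and lay within the PBS range, and 9 of 12 PBS-treated mice were below every wild-type mouse. Slc12a3 fell to 62.3% of wild type with PBS, a log2 fold change of −0.68 (SE 0.117, adjusted p = 6.64e-06, edgeR). With RGLS4326 it read 745 ± 132 CPM (SD, n = 14) against 630.4 ± 86.2 CPM (SD, n = 12) with PBS. That log2 fold change of 0.24 (SE 0.0893) did not pass the adjustment (adjusted p = 0.0572, edgeR), but passed with the index series as a covariate (adjusted p = 0.0495, edgeR) and in DESeq2 (adjusted p = 0.0396), and not with the PBS and RGLS4326 mice alone (adjusted p = 0.0649, edgeR). In all, 12 of 14 treated mice were above the PBS median. Without mouse 9 it was 0.19 (adjusted p = 0.105, edgeR). It passed when any of 6 other mice was left out (PBS-treated mouse 4, 8 or 12, treated mouse 2, 11 or 14), with adjusted p from 0.0240 to 0.0435. Treated kidneys stayed below wild type by a log2 fold change of −0.44 (SE 0.115, adjusted p = 0.00148, edgeR).

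The 3 ENaC subunits did not rise equally. Scnn1a (ENSMUSG00000030340.16, chr6:125320659-125344943, plus strand) encodes the α subunit, which is needed for any channel to form. It read 128, 138, 146, 144 and 111 CPM in wild type, 142 to 205 CPM with a median of 171 with PBS and 143 to 205 CPM with a median of 167 with RGLS4326. Polycystic kidneys were higher, with 10 of 12 PBS-treated mice above every wild-type mouse, by a log2 fold change of 0.37 (SE 0.0857, adjusted p = 0.000283, edgeR). RGLS4326-treated and PBS-treated mice overlapped over nearly the whole range, at a log2 fold change of −0.07 (SE 0.062, adjusted p = 0.427, edgeR).

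Scnn1b (ENSMUSG00000030873.9, chr7:121865038-121918514, plus strand) and Scnn1g (ENSMUSG00000000216.8, chr7:121734479-121768475, plus strand) are neighbours on the chromosome and encode the β and γ subunits. Scnn1b read 54.7, 54.6, 63.4, 57.7 and 55.7 CPM in wild type, 104 to 165 CPM with a median of 136 with PBS and 55.9 to 128 CPM with a median of 103 with RGLS4326. Scnn1g read 52.2, 48.0, 45.4, 49.2 and 47.8 CPM in wild type, 96.1 to 138 CPM with a median of 119.7 with PBS and 48.8 to 117 CPM with a median of 92.9 with RGLS4326. For both genes the PBS and wild-type ranges did not touch, and the lowest treated mouse was mouse 9. The rise with PBS came to 229.5% of wild type for Scnn1b (log2 fold change 1.20, SE 0.131, adjusted p = 1.12e-08, edgeR). For Scnn1g it came to 240.0% (log2 fold change 1.26, SE 0.126, adjusted p = 3.55e-09, edgeR). Both were lower with RGLS4326 than with PBS. Scnn1b was 99.1 ± 18.4 CPM (SD, n = 14) with RGLS4326 against 131 ± 19.1 CPM (SD, n = 12) with PBS, and all 14 treated mice lay below the PBS median, 7 of them below every PBS-treated mouse. Its log2 fold change was −0.41 (SE 0.09, adjusted p = 0.00989, edgeR). Scnn1g was 92.6 ± 17.1 CPM (SD, n = 14) against 116 ± 13.8 CPM (SD, n = 12), again with all 14 treated mice below the PBS median and 8 below every PBS-treated mouse. Its log2 fold change was −0.33 (SE 0.0863, adjusted p = 0.0191, edgeR). Without mouse 9 the values were −0.36 (adjusted p = 0.00807) for Scnn1b and −0.28 (adjusted p = 0.0151) for Scnn1g in edgeR, and both calls held in each of the 26 fits that left out 1 PBS-treated or treated mouse. Within the 3 index series alone the log2 fold changes were −0.21, −0.42 and −0.56 for Scnn1b and −0.15, −0.36 and −0.46 for Scnn1g, in the same direction each time but none passing the adjustment in edgeR (lowest adjusted p 0.164 and 0.166). Treated kidneys remained above wild type, at log2 fold changes of 0.79 (SE 0.126) for Scnn1b and 0.93 (SE 0.122) for Scnn1g. Cog7 overlaps Scnn1b on the opposite strand, and whether reads were counted by strand is not given in the sources used here.

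Since subunits of 1 channel are measured in the same library, their ratio in a mouse does not depend on library scaling. The ratio of Scnn1b to Scnn1a counts was 0.430 in wild type, 0.757 with PBS and 0.593 with RGLS4326 (geometric means). On the log2 scale the difference was 0.82 between PBS and wild type (adjusted p = 0.000442, exact permutation test of mice, two-sided, adjusted over 18 comparisons of ratios). Between RGLS4326 and PBS it was −0.35 (adjusted p = 0.00018, permutation test with 100000 resamples, whose unadjusted 1e-05 is the smallest they can give). Scnn1g to Scnn1a showed the same order, 0.365, 0.673 and 0.554, with a log2 difference of 0.88 with PBS (adjusted p = 0.000442, exact permutation test) and −0.28 with treatment (adjusted p = 0.00027, permutation test). Without mouse 9 the treatment differences were −0.31 and −0.23, both with an adjusted p of 9e-05 in the same permutation test. The ratio of Scnn1g to Scnn1b was 0.848, 0.889 and 0.934. Its log2 difference was 0.07 between PBS and wild type (adjusted p = 0.292, exact permutation test), 0.07 between RGLS4326 and PBS (adjusted p = 0.0701, permutation test) and 0.14 between RGLS4326 and wild type, of which the last passed (adjusted p = 0.0244, exact permutation test). Without wild-type mouse 3 the difference between RGLS4326 and wild type was 0.08 and did not pass (adjusted p = 0.132, exact permutation test). Slc12a3 to Scnn1a, the cotransporter against the channel, fell from 7.51 in wild type to 3.64 with PBS and stood at 4.48 with RGLS4326. The treatment difference on the log2 scale was 0.30 (adjusted p = 0.0115, permutation test) and 0.24 without mouse 9 (adjusted p = 0.0189). Of the 18 comparisons of ratios, 15 had an adjusted p under 0.05 with every mouse. Ratios of other genes were not computed, so that no share of all genes stands beside this count. Among the 15 was Wnk4 to Wnk1 between RGLS4326 and wild type (adjusted p = 0.0399, exact permutation test). It did not pass without mouse 9 (adjusted p = 0.0527, exact permutation test). In all, it was lost in 9 of the 19 tests that left out 1 mouse.

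**Figure D3:**
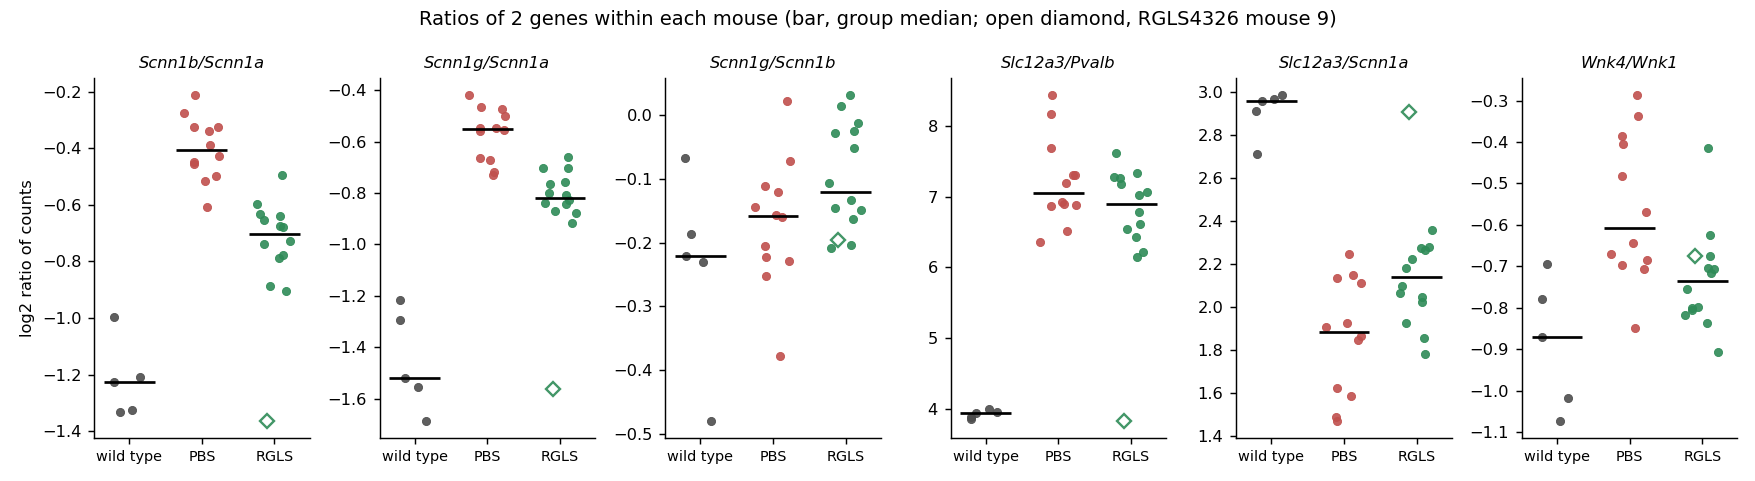
Log2 ratio of the counts of 2 genes within each mouse, for 6 ratios in the 3 groups (RGLS, RGLS4326-treated). Points are mice, bars are group medians and the open diamond is RGLS4326-treated mouse 9. Scnn1b/Scnn1a and Scnn1g/Scnn1a are highest with PBS and lowest in wild type, and Slc12a3/Pvalb is near 3.92 on the log2 scale in wild type and 7.21 with PBS.

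Pvalb (ENSMUSG00000005716.16, chr15:78191114-78206400, minus strand) had the widest difference of the 10 genes between polycystic and wild-type kidney. It read 65.6, 69.8, 74.7, 71.3 and 50.2 CPM in wild type, 1.49 to 7.80 CPM with a median of 4.55 with PBS and 3.82 to 76.6 CPM with a median of 5.78 with RGLS4326. Every PBS-treated mouse and 13 of 14 treated mice were below every wild-type mouse, and mouse 9, with 76.6 CPM from 1498 counts, was above them all. PBS-treated kidneys were at 7.02% of wild type, a log2 fold change of −3.83 (SE 0.498, adjusted p = 1.07e-07, edgeR), and their counts of 37 to 157 per mouse make this the least precisely counted of the 10 genes. In RGLS4326 against PBS the log2 fold change was 1.27 (SE 0.418, adjusted p = 0.0400, edgeR), and it rests on mouse 9. Without that mouse the treated group was 6.25 ± 1.89 CPM (SD, n = 13) against 4.70 ± 2.09 CPM (SD, n = 12) with PBS, a log2 fold change of 0.42 that did not pass (adjusted p = 0.151, edgeR). The call was also lost on leaving out PBS-treated mouse 2, 3, 5, 9, 10 or 11 or treated mouse 3, 6, 8, 10 or 13, with adjusted p of 0.0502 to 0.0794 in edgeR. It was lost too in DESeq2, at a log2 fold change of 0.42 (adjusted p = 0.107), and in edgeR with the index series as a covariate (adjusted p = 0.0527) or with the PBS and RGLS4326 mice alone (adjusted p = 0.0596). Within index series the log2 fold changes were 0.21, 1.82 and 0.97, the highest in the series of mouse 9. Slc12a3 and Pvalb, both products of the distal convoluted tubule, parted by a wide margin. Their ratio was 15.2 in wild type, 148 with PBS and 102 with RGLS4326, a log2 difference of 3.29 between PBS and wild type (adjusted p = 0.000442, exact permutation test) and of −0.54 between RGLS4326 and PBS (adjusted p = 0.0942, permutation test), which became −0.33 without mouse 9 (adjusted p = 0.161). Skeletal muscle also makes parvalbumin, and of 5 muscle genes Myh4 had no count in any kidney and the summed level was 0.602 to 1.62 CPM.

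Nr3c2 (ENSMUSG00000031618.13, chr8:76899442-77245012, plus strand), the mineralocorticoid receptor, was scarce. It read 16.7, 17.4, 13.4, 16.2 and 13.2 CPM in wild type, 9.49 to 14.8 CPM with a median of 11.9 with PBS and 6.81 to 16.5 CPM with a median of 9.64 with RGLS4326. All but 1 of the PBS-treated mice were below every wild-type mouse. Nr3c2 fell to 75.6% of wild type with PBS (log2 fold change −0.40, SE 0.141, adjusted p = 0.0113, edgeR), the weakest of the 10 calls in that comparison. The treated group did not differ from PBS by the test (log2 fold change −0.13, SE 0.106, adjusted p = 0.358, edgeR) and was below wild type (log2 fold change −0.54, SE 0.137, adjusted p = 0.00119, edgeR). Its coefficient of variation was 25.4% among treated mice against 14.2% among PBS-treated mice. Gm10649 overlaps Nr3c2 on the opposite strand.

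Nedd4l, the ubiquitin ligase that retrieves ENaC from the membrane, was higher in polycystic kidney, as the channel was. It read 121, 114, 115, 111 and 118 CPM in wild type, 118 to 159.6 CPM with a median of 147 with PBS and 112 to 155 CPM with a median of 147 with RGLS4326. In all, 11 of 12 PBS-treated and 13 of 14 treated mice were above every wild-type mouse. With PBS the log2 fold change was 0.32 (SE 0.0624, adjusted p = 3.99e-05, edgeR). RGLS4326 and PBS had nearly equal means, 142 ± 11.6 CPM (SD, n = 14) and 145 ± 11.8 CPM (SD, n = 12), at a log2 fold change of −0.02 (SE 0.0453, adjusted p = 0.721, edgeR).

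The WNK kinases and their adaptor were lower in polycystic kidney. Wnk1 (ENSMUSG00000045962.16, chr6:119923969-120038672, minus strand) read 471, 484, 645, 652 and 457 CPM in wild type, 285 to 432 CPM with a median of 352 with PBS and 345 to 579 CPM with a median of 421 with RGLS4326. No PBS-treated mouse reached the lowest wild-type mouse, and the log2 fold change was −0.61 (SE 0.106, adjusted p = 8.65e-06, edgeR). Wnk1 was higher with RGLS4326 than with PBS, at 426 ± 60.8 CPM (SD, n = 14) against 356 ± 50.1 CPM (SD, n = 12), a log2 fold change of 0.26 (SE 0.0806, adjusted p = 0.0344, edgeR), and 12 of 14 treated mice were above the PBS median. Without mouse 9 it was 0.22 and did not pass (adjusted p = 0.0589, edgeR). The call was lost as well without PBS-treated mouse 2, 3, 5, 9 or 10 or treated mouse 6 or 8, with adjusted p of 0.0535 to 0.0709 in edgeR. Within index series the log2 fold changes were 0.20, 0.42 and 0.12, none of which passed.

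Wnk4 (ENSMUSG00000035112.17, chr11:101260567-101277409, plus strand), the principal activator of NCC among the WNK kinases in this segment, read 275, 299, 319, 309 and 249.8 CPM in wild type. It ran from 218 to 266 CPM with a median of 235 with PBS and from 216 to 363 CPM with a median of 249 with RGLS4326. The fall with PBS was smaller than for Wnk1, to 82.6% of wild type (log2 fold change −0.28, SE 0.0739, adjusted p = 0.00136, edgeR), and 9 of 12 mice were below every wild-type mouse. Between RGLS4326 and PBS the log2 fold change of 0.09 (SE 0.0553) did not pass (adjusted p = 0.21, edgeR). Treated kidneys were below wild type by −0.18 (SE 0.0725, adjusted p = 0.0295, edgeR), a call that was lost without wild-type mouse 2, 3 or 4 (adjusted p 0.0747 to 0.120 in edgeR) and with these 2 groups alone in the fit (adjusted p = 0.0847). The ratio of Wnk4 to Wnk1 was 0.541 in wild type, 0.679 with PBS and 0.602 with RGLS4326, and the log2 difference was 0.33 between PBS and wild type (adjusted p = 0.00529, exact permutation test) and −0.17 between RGLS4326 and PBS (adjusted p = 0.0115, permutation test).

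Klhl3 (ENSMUSG00000014164.15, chr13:58000228-58113592, minus strand), whose product marks WNK kinases for degradation, read 16.7, 16.4, 22.6, 26.6 and 17.6 CPM in wild type. It ran from 6.59 to 12.6 CPM with a median of 9.43 with PBS and from 6.91 to 22.1 CPM with a median of 11.01 with RGLS4326. The wild-type and PBS ranges did not overlap, and Klhl3 was at 47.7% of wild type with PBS (log2 fold change −1.07, SE 0.19, adjusted p = 1.12e-05, edgeR). The treatment difference of 0.33 (SE 0.148) did not pass (adjusted p = 0.107, edgeR), with 11 of 14 treated mice above the PBS median, and without mouse 9 it was 0.23 (adjusted p = 0.217, edgeR). Treated kidneys were at 59.9% of wild type (log2 fold change −0.74, SE 0.186, adjusted p = 0.00105, edgeR).

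Markers of principal cells and of the distal convoluted tubule also differed between PBS and wild type, and their part in the results was not tested. In bulk kidney RNA, fewer cells of a type and less RNA per cell cannot be told apart. Of 7 principal cell genes 6 were higher with PBS than in wild type, 1 (Aqp4) was lower, and 5 were lower with RGLS4326 than with PBS (edgeR, adjusted p under 0.05), where 37.7% of all genes were higher and 36.6% lower with PBS and 6.66% lower with RGLS4326. Their summed level was 557 to 985 CPM in wild type, 1493 to 3095 CPM with PBS and 943 to 2152 CPM with RGLS4326, the lowest treated value being that of mouse 9. Aqp2, the vasopressin-regulated water channel, rose by a log2 fold change of 2.30 with PBS (adjusted p = 1.03e-08, edgeR), more than Scnn1b or Scnn1g. Of 7 genes of the distal convoluted tubule other than Slc12a3 and Pvalb, 4 were lower with PBS (Calb1, Kl, Slc8a1, Egf), 1 was higher (Trpv5) and 2 did not pass, a share of calls near that of all genes. Their summed level was 2912 to 3817 CPM in wild type, 1132 to 2227 CPM with PBS and 1376 to 3383 CPM with RGLS4326. With treatment 2 of the 7 were higher, Calb1 and Kl (log2 fold changes 0.43 and 0.33, adjusted p = 0.0475 and 0.0489, edgeR), against 9.15% of all genes. The other 5 did not pass, with Slc8a1, Egf and Emx1 above 0 and Trpv5 (−0.36) and Trpm6 (−0.06) below it. Neither Calb1 nor Kl passed without mouse 9 (0.31 and 0.27, adjusted p = 0.0883 and 0.0881, edgeR), whose summed level of 3383 CPM was above the 2735 CPM of the next treated mouse. Without it 4 of the 7 principal cell genes were lower with treatment, against 3.48% of all genes. Several of these genes are made in neighbouring segments as well.

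The level of injury differed among mice of the same group, which allowed each gene to be set against Lcn2, which encodes Ngal and is raised in injured tubules. Lcn2 ran from 205 to 1205 CPM among PBS-treated mice and from 2.76 to 607 CPM among treated mice, where all but mouse 9 were at 126 CPM or more. Both members of each pair share 1 library scaling. In the 12 PBS-treated mice Pvalb fell as Lcn2 rose, with Pearson's r of −0.87 (p = 0.00029, adjusted p = 0.00145) and Spearman's rho of −0.87 (p = 0.00045, adjusted p = 0.00225) by permutation tests adjusted over 20 relations. Slc12a3 gave r of −0.80 (p = 0.00188, adjusted p = 0.00627) and rho of −0.89 (p = 0.00022, adjusted p = 0.00147), and Klhl3 r of −0.82 (p = 0.00134, adjusted p = 0.00536) and rho of −0.79 (p = 0.00286, adjusted p = 0.00953), permutation tests. Scnn1b rose with Lcn2, with r of 0.76 (p = 0.00447, adjusted p = 0.0128) and rho of 0.66 (p = 0.0217, adjusted p = 0.0483), permutation tests. Without the 2 mice farthest from the median of Lcn2, r was −0.88 for Pvalb, −0.71 for Slc12a3, −0.73 for Klhl3 and 0.65 for Scnn1b. In the treated mice mouse 9 stood alone at low Lcn2. Over the other 13, r was 0.87 for Scnn1b (adjusted p = 0.0029), 0.76 for Scnn1g (adjusted p = 0.0114) and −0.79 for Pvalb (adjusted p = 0.00944) in permutation tests, and the other 7 genes did not pass. In all, 17 of 20 relations had an adjusted p under 0.05 for r with every mouse, and 8 of 20 did without mouse 9. Relations to Lcn2 were common among all genes. At an unadjusted permutation p of r under 0.05, a count added after seeing the data, 7 of the 10 genes passed in PBS-treated mice against 49.6% of all genes and 10 of 10 in treated mice against 48%. Without mouse 9 it was 4 of 10 against 37.3%, so passing alone sets none of the 10 apart. By rho 9 of 20 did with every mouse. Scnn1g in PBS-treated mice was among those that did not pass (r 0.57, adjusted p = 0.0635, and rho 0.35, adjusted p = 0.316, permutation tests). With Havcr1 (Kim-1) as the injury marker 3 of 20 did, all among treated mice (Scnn1b, Scnn1g, Pvalb), and no relation passed in PBS-treated mice. The index series hold 4 or 5 mice of a group, too few for a correlation of their own. With values centred on the series means, r in PBS-treated mice was −0.93 for Pvalb (adjusted p = 5e-05), −0.82 for Slc12a3 (adjusted p = 0.00493), −0.84 for Klhl3 (adjusted p = 0.00456) and 0.71 for Scnn1b (adjusted p = 0.0183), permutation tests.

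**Figure D4:**
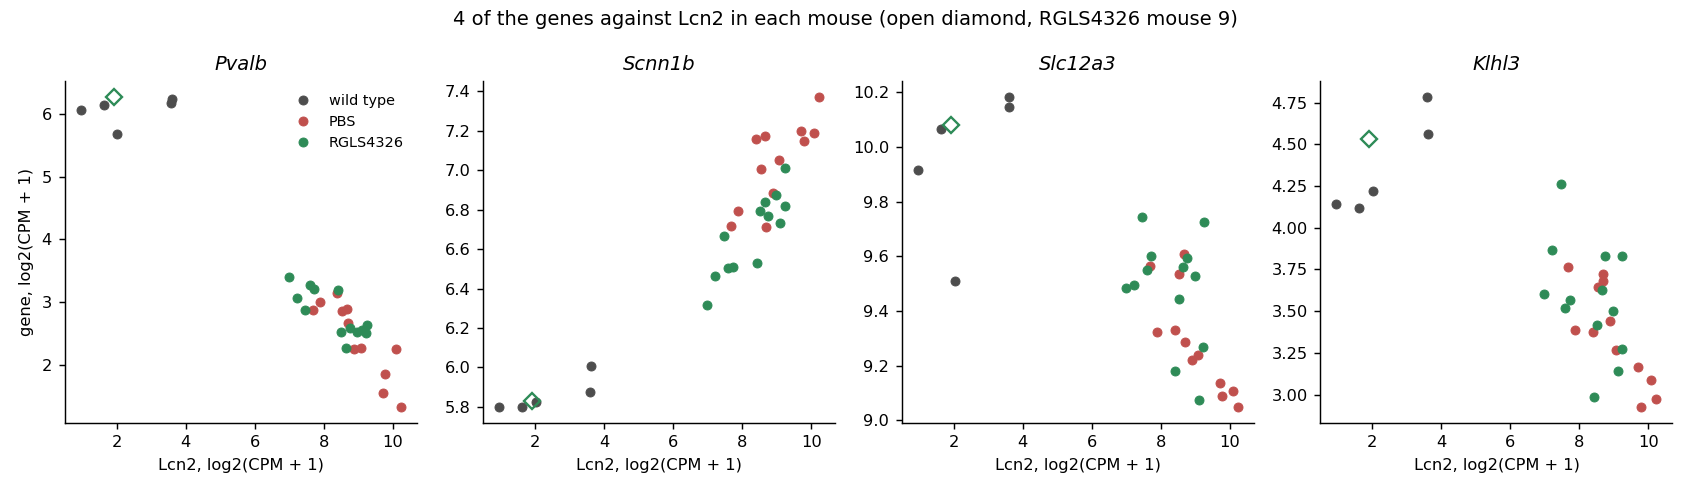
Pvalb, Scnn1b, Slc12a3 and Klhl3 against Lcn2 in each mouse, both as log2(CPM + 1), coloured by group. Each point is 1 mouse and the open diamond is RGLS4326-treated mouse 9, which lies beside the wild-type mice in all 4 panels, while Pvalb is lower and Scnn1b higher at higher Lcn2 in the polycystic mice.

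Other genes of the pathway were taken as 4 lists. Of their 32 genes 8 were called with treatment in edgeR, against 15.8% of all genes. Without mouse 9, where 8.14% of all genes were called, 7 of the 8 remained and Hspa8 of the aldosterone list did not (log2 fold change 0.28, adjusted p = 0.0638). Among 8 partners of the WNK kinases, 1 was higher and 5 were lower with PBS than in wild type and 2 did not pass, and 2 were higher with RGLS4326 than with PBS (median log2 fold changes −0.41 and 0.08). These shares are near those of all genes, 74.3% of which passed with PBS and 15.8% with treatment. Cul3, the cullin that works with KLHL3, read 168 CPM in wild type, 91.8 with PBS and 114 in treated mice on average, 0.32 higher with treatment on the log2 scale (adjusted p = 0.0271, edgeR). Cab39, a scaffold of the downstream kinases, rose by 0.13 with treatment (adjusted p = 0.0201, edgeR). Stk39, which encodes SPAK, the kinase that phosphorylates NCC, was higher with PBS than in wild type (log2 fold change 0.44, adjusted p = 1.44e-06, edgeR), and its treatment difference of −0.11 did not pass (adjusted p = 0.0894, edgeR).

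Of 10 genes of the aldosterone response and steroid access, 9 were lower and 1 was higher with PBS than in wild type. With RGLS4326 against PBS, 4 were higher, 1 was lower and 5 did not pass. Over all genes 36.6% were lower with PBS and 15.8% passed with treatment. The 1 that was higher with PBS and lower with treatment was Hsd11b2, which shields the receptor from glucocorticoid and is also a principal cell marker (log2 fold changes 1.55 and −0.32, adjusted p = 2.56e-09 and 0.0352, edgeR). Fkbp5, a steroid-receptor co-chaperone, averaged 135 CPM in wild type, 59.0 with PBS and 91.1 with RGLS4326, and rose by 0.63 on the log2 scale with treatment (adjusted p = 0.00225, edgeR). Zbtb16, a zinc-finger factor induced by glucocorticoid, averaged 4.56, 2.29 and 4.28 CPM, a treatment log2 fold change of 0.89 (adjusted p = 0.0143, edgeR). Usp2, a deubiquitinase, averaged 182, 77.5 and 111 CPM, a treatment log2 fold change of 0.52 (adjusted p = 0.0269, edgeR). Sgk1, the kinase that links aldosterone to NEDD4-2, was lower with PBS (log2 fold change −0.49, adjusted p = 0.0111, edgeR), and its treatment difference of 0.17 did not pass (adjusted p = 0.324, edgeR). The glucocorticoid receptor drives several of these genes as well as the mineralocorticoid receptor.

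Of 4 proteases that activate ENaC, 2 were higher (St14, Tmprss4) and 2 lower (Prss8, Furin) with PBS, where 74.3% of all genes passed. With treatment 1 of the 4 passed, where 15.8% of all genes did. St14, matriptase, was lower (log2 fold change −0.30, adjusted p = 0.0236, edgeR), whereas Prss8 (0.21, adjusted p = 0.0703) and Tmprss4 (−0.43, adjusted p = 0.116) did not pass in edgeR. Among 10 potassium channels, chloride channel genes and sodium pump subunits, 1 was higher with PBS (Fxyd4), 4 were lower and 5 did not pass, and none of the 10 passed with treatment in edgeR, where 5 had an unadjusted p under 0.05 and DESeq2 called 2. Over all genes 36.8% had an unadjusted p under 0.05 and DESeq2 called 21.1%. The smallest adjusted p there were 0.0528 for the pump subunit Atp1b1, 0.0589 for Fxyd4 and 0.0682 for the potassium channel Kcnma1, at log2 fold changes of 0.22, −0.36 and 0.23 (edgeR). Kcnj1, the ROMK channel through which the same cells secrete potassium, had a log2 fold change of 0.15 in PBS against wild type that did not pass the adjustment (p = 0.0496, adjusted p = 0.0653, edgeR).

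**Figure D5:**
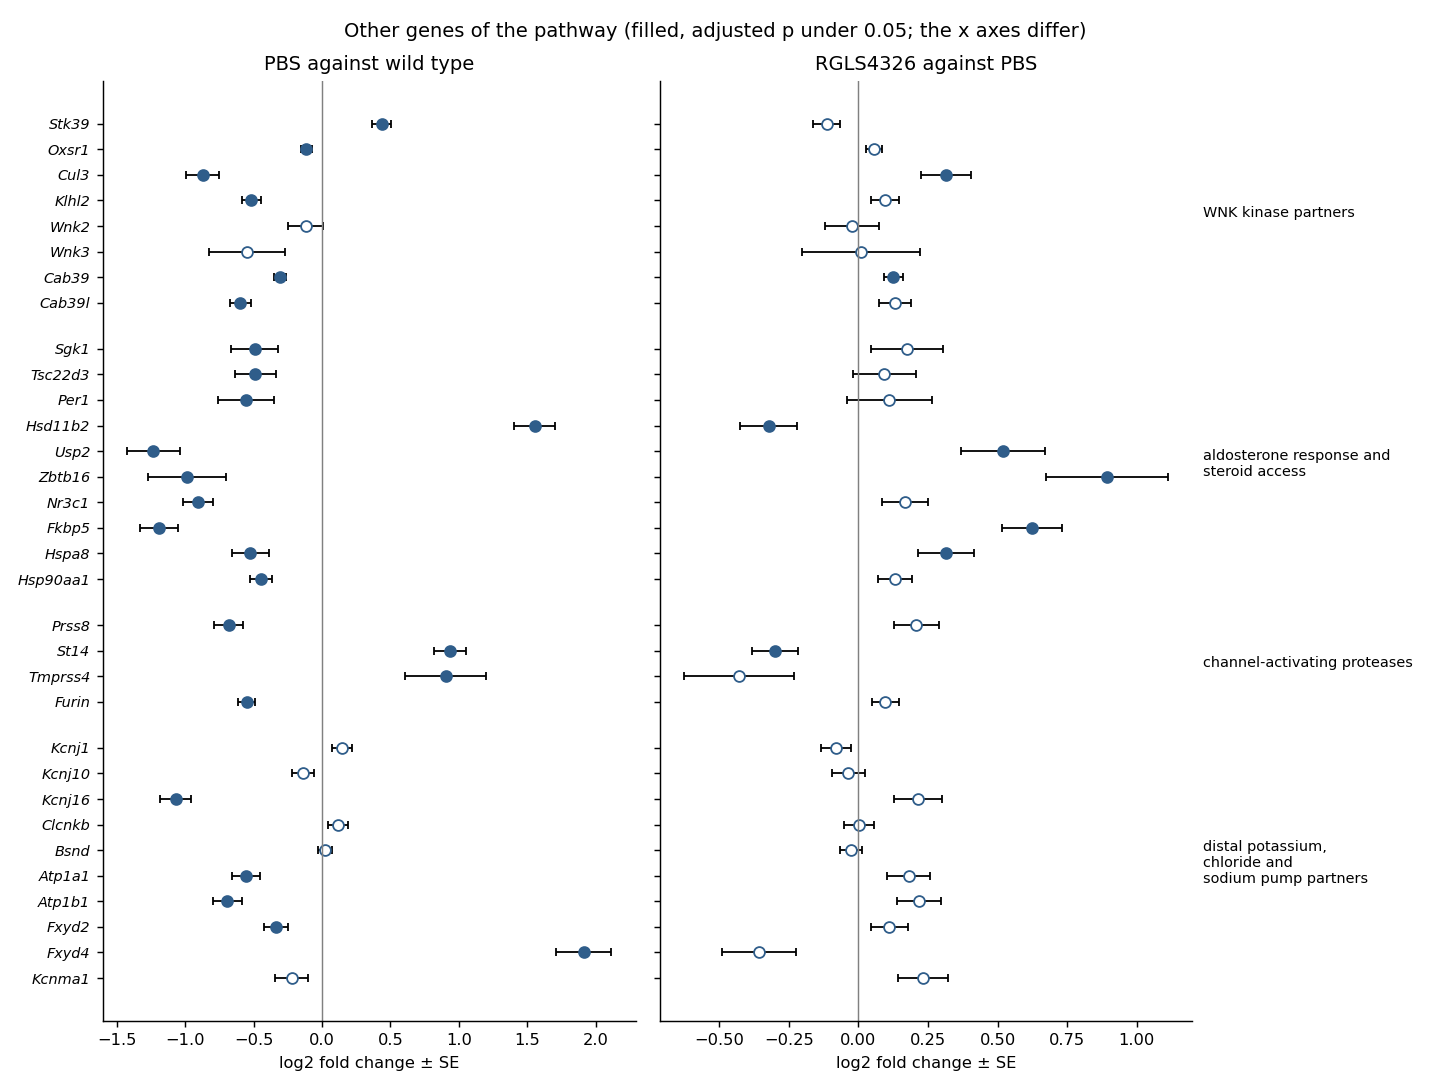
Log2 fold changes of 32 other genes of the pathway in PBS against wild type and in RGLS4326 against PBS, grouped by the 4 lists named at the right. Error bars are 1 standard error, filled points have an adjusted p under 0.05 in edgeR, and the 2 panels have their own x axes. In the aldosterone list 9 of 10 points lie left of 0 and are filled in PBS against wild type.

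Among the 26 Pcy/CD1 mice, with values centred on the 2 group means, Scnn1b and Scnn1g varied together most closely of all pairs of the 10 genes (Pearson's r 0.94, and 0.90 without mouse 9), followed by Slc12a3 with Klhl3 (0.91 and 0.88) and Slc12a3 with Wnk1 (0.91 and 0.88). Scnn1b and Pvalb varied in opposite directions (−0.82 and −0.68). Among 11558 other genes averaging 5 CPM or more, those most like Slc12a3 were Kidins220, Cmtm4 and Sgms2 (r 0.90, 0.89 and 0.89, and 0.86 each without mouse 9). The nearest to Scnn1b were Aif1l, Atp12a and Golm1 (0.94, 0.92 and 0.91, and 0.90, 0.88 and 0.85 without mouse 9). Nearest to Nr3c2 were Ccnt1, Map3k7 and Arhgef12 (0.90 each, and 0.90, 0.90 and 0.89 without mouse 9). These correlations are descriptions over 26 mice that share the library scaling, and they carry no test.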

How the data were processed

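Kidney poly(A) RNA of 31 mice was sequenced as stranded libraries with paired reads of 75 bases. Per the labels and the study's methods, the authors trimmed reads with Trim Galore, mapped them to GRCm38 with STAR and counted unique reads with HTSeq 0.6.1. They deposited raw counts, which were not normalised. The annotation and strand setting are not given in the sources used here. HTSeq's 5 summary rows were left out of library sizes and tests. Reads on no gene were 8.39% to 10.1% and reads not mapped uniquely 17.8% to 21.2% of each library.

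Groups and replicate numbers came from the labels. Counts of all 31 mice were fitted with edgeR 4.0.16 in R 4.3.3 (filterByExpr defaults, TMM, quasi-likelihood test, 1 coefficient per group, no covariate, Benjamini-Hochberg over 15185 genes). A call is an adjusted p under 0.05. Approximate standard errors were derived from each fold change and its F statistic (log2 value over root F). Ratios used counts + 0.5, and relations to Lcn2 used log2(CPM + 1), both tested by permuting mice (exact, or 100000 resamples, two-sided). The labels list mice separately but do not say how they were bred or housed, so p-values measure the spread between these animals. The other steps ran in Python 3.11.15 (scipy 1.17.1, numpy 2.4.6, pandas 2.3.3), with plots from matplotlib 3.10.9. Positions are from GENCODE vM21 on GRCm38.

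The 10 genes, the lists and the tests were chosen with earlier results of these data known. All 10 genes are named. Of each pathway list the 3 genes with the smallest treatment p-values are named, and for Slc12a3, Scnn1b and Nr3c2 the 3 most similar genes. Other genes of the lists that are named with values (such as Sgk1, Hsd11b2, Kcnj1 and Aqp2) were picked after their values were seen. Of 13 marker lists 70 of 71 genes were found by symbol or older symbol. Alternatives covered the filter, normalisation (RLE), test (DESeq2 1.42.0), mice in the model, size threshold, index series, replicate block, pseudocounts, Havcr1 in place of Lcn2 and leaving out each mouse, and, added after seeing the data, merged exons as the length behind levels per kilobase, the list genes without treated mouse 9 and relations to Lcn2 by unadjusted p. On counts simulated for RGLS4326 against PBS over 15083 genes, 94 of 99 genes changed by 1 on the log2 scale and 75 of 100 changed by 0.5 were called, as were 7 of 14884 unchanged genes.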

Additional observations from a re-analysis of the deposited data

Results flagged for a closer look

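Among 16 measures examined in the 5 wild-type mice, 1 had a mouse set apart from the rest by Dixon's criterion, the log2 ratio of Slc12a3 to Scnn1a. Wild-type mouse 5 was at 2.71, and its gap to the next mouse was 0.732 of the group's range, where the critical value for 5 samples is 0.71. Chance alone sets a mouse apart in about 1 in 20 such measures. The same mouse had the lowest Slc12a3, Scnn1a, Nr3c2, Wnk1, Wnk4 and Pvalb of its group. The log2 difference of this ratio between PBS and wild type was −1.04 with all mice and −1.01 to −1.09 when any 1 mouse was left out.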

How the results depend on the processing

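All 10 genes passed in PBS against wild type under RLE normalisation, no filter, only 2 groups, the series covariate, the replicate block, DESeq2 and leaving out any mouse, and 9 and 8 passed in index series 1 and 2 alone. With the threshold on size, 6, 1 and 5 genes passed in PBS against wild type, RGLS4326 against PBS and RGLS4326 against wild type. For RGLS4326 against PBS the count of 4 was 2 to 5 when 1 mouse was left out. In each of index series 1, 2 and 3 alone it was 0, with 0, 4 and 3 genes at an unadjusted p under 0.05, on fewer mice. Shares of all genes at an unadjusted p under 0.05 were not counted in any of these alternative edgeR fits. In the main fit that share was 36.8% for RGLS4326 against PBS. RGLS4326 against wild type gave 9 with only 2 groups (Wnk4 lost), 7 in series 1 alone and 0 in series 2 alone, the last with 6 at an unadjusted p under 0.05. With a replicate block the count for RGLS4326 against PBS was 0, with 5 at an unadjusted p under 0.05 (adjusted p in edgeR 0.0543 for Scnn1b, 0.0641 for Scnn1g, 0.0604 for Wnk1 and 0.259 for Pvalb). The numbers share no stated pairing, and 4 of 12 same-numbered PBS and RGLS4326 mice deviated together with a correlation over 0.1 (mean −0.0849). DESeq2 and the series covariate also called 4, each with Slc12a3 in and Pvalb out, and 3 passed with only 2 groups. With merged exons in place of the principal transcript 12 of 30 levels per kilobase moved by more than 1 SD. Against PBS, log2 fold changes turned sign for Scnn1a (0.0108) and Nr3c2 (0.0767) in series 2 and for Nedd4l in series 1 (0.0530) and when 1 mouse was left out (−0.0463 to 0.000354, the latter without treated mouse 9), none of which passed in any of these fits. The 17 relations to Lcn2 became 3 with Havcr1, where r in PBS-treated mice turned sign for Scnn1b (−0.0456), Scnn1g (−0.162) and Nr3c2 (0.0252), and 8 without treated mouse 9. Of the list genes, Wnk3 (−0.000873), Slc4a1 (−0.00922), Pdgfra (0.0217) and Cd8a (0.00700) turned sign between RGLS4326 and PBS without that mouse, with none passing. The cause of these changes was not tested. With 37 to 157 counts per PBS-treated mouse, Pvalb is the gene most limited by depth.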

Other observations

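Outside the distal nephron, all 6 proximal tubule genes (Lrp2, Slc34a1, Slc5a2, Slc22a6, Slc5a12, Cubn) were lower with PBS than in wild type, with a median log2 fold change of −1.23 (36.6% of all genes were lower), and 2 of them were higher with RGLS4326 than with PBS (9.15% of all genes), or 1 without treated mouse 9 (4.66%). Their summed level was 14440 to 15530 CPM in wild type, 4315 to 8762 CPM with PBS and 5684 to 13310 CPM with RGLS4326. Genes of injured tubules (5 of 5), macrophages (5 of 5), T lymphocytes (4 of 4) and fibroblasts (5 of 6) were higher with PBS than in wild type, where 37.7% of all genes were higher, with median log2 fold changes of 3.23, 2.18, 2.27 and 1.67. Between RGLS4326 and PBS 0 of these 20 passed in edgeR (2 at an unadjusted p under 0.05, and 1 in DESeq2), where 15.8% of all genes did. Without treated mouse 9 the macrophage gene Adgre1 passed as higher with treatment (log2 fold change 0.53, adjusted p = 0.0329, edgeR), where 4.66% of all genes were higher. The other 4 macrophage genes had log2 fold changes below 0 and did not pass, and the median of the 5 was −0.0645. Of 5 genes each, 2 rose and 1 fell for the thick ascending limb, 1 rose and 2 fell for intercalated cells, 2 rose for podocytes and 2 fell for endothelium in PBS against wild type. Adrenal cortex genes were near absent, at a summed 1.98 to 4.13 CPM, and Cyp11b2, which encodes aldosterone synthase, had no count in wild-type or treated kidneys. Plasma aldosterone and dietary sodium were not analysed here.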
